A study of Mus musculus with 12 samples.

Results

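Coding transcripts with a 3′ UTR exon junction are protein_coding transcripts whose stop codon lies more than 55 bases, counted on the spliced RNA, upstream of the last exon-exon junction. The rule was applied to the GENCODE annotation of GRCm38, and 260 of the 40625 coding transcripts with an annotated stop codon met it, among 92468 transcripts in the files. They came from 214 genes, of which 32 had 2 or more such transcripts. The other coding transcripts comprised 38251 with no junction after the stop codon and 2114 whose last junction lay 1 to 55 bases after it. The stop triplet, read from the transcript sequence for 257 of the 260, was TGA in 128 (49.8%), TAA in 70 (27.2%) and TAG in 59 (23.0%), beside 49.6, 27.4 and 23.0% in 40300 other coding transcripts.

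Nonsense-mediated mRNA decay (NMD) removes transcripts on which translation ends well upstream of an exon junction. Splicing deposits an exon junction complex just upstream of each junction, the first ribosome strips those in the coding region, and a complex that stays bound after the stop codon can be bridged by UPF3B to UPF2 and UPF1. A normal coding transcript whose 3′ UTR is spliced therefore carries the same signal as a transcript with a premature stop codon, and Arc is a textbook example of such a natural target.

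Total RNA from 12 livers was sequenced. All livers came from hFIX-R29X hemophilia B mice of 8 to 14 weeks, a strain without its own F9 gene. Its transgene is the R29X nonsense form of human FIX, and its promoter, from human transthyretin, is active mainly in hepatocytes. Mice received DPBS, a scrambled Control-GalNAc-ASO at 15 mg/kg (control ASO) or Upf3b-GalNAc-ASO at 10 mg/kg, in 6 doses given every 5 days, and were killed 48 h after the last dose. An ASO is an antisense oligonucleotide, and GalNAc is a sugar that carries it into hepatocytes. Each group had 4 livers, replicates 1 and 2 female and replicates 3 and 4 male. The ASO doses differed, so the contrast between the ASO groups holds dose as well as sequence.

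Depth, as the sum of estimated read counts, was 18.5 to 20.4 M in DPBS livers, 17.6 to 18.8 M in control ASO livers and 13.3 to 17.1 M in Upf3b-GalNAc-ASO livers, so the treated libraries were the shallowest. Upf3b, the targeted gene, stood at 9.38 to 13.5 CPM (read counts scaled to the TMM-normalised library size) in DPBS livers, 7.93 to 12.01 in control ASO livers and 0.651 to 1.58 in Upf3b-GalNAc-ASO livers (log2 fold change −3.30 ± 0.27 against control ASO, edgeR adjusted p = 7.4e-05). The 6 hepatocyte markers summed to 47290 to 89150 TPM (reads scaled to transcript length and library) in DPBS livers, 47460 to 85780 in control ASO livers and 34640 to 76220 in Upf3b-GalNAc-ASO livers. None was at 0, and 1 of the 6 was called lower in the treated livers in both comparisons. The part of this in the results below was not tested. Control ASO replicate 1 held the highest erythroid marker sum, 10340 TPM against at most 1403 elsewhere, and control ASO replicate 3 stood apart on several of the transcripts below. In bulk liver, fewer cells of a type and less RNA per cell cannot be told apart.

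The sequences below show the signal that the rule reads, for 6 of the transcripts whose values are given further on. The first set gives the last 27 coding bases in lower case and the stop codon in capitals, from the GENCODE transcripts of GRCm38, 5′ to 3′.
Cblc-201: gccagggaggaggccacagaaagctccTGA
Phlda3-201: agtcttgggactgggacccttgtgtccTAA
Hnrnpa2b1-202: ggtggctatggtggaaggagcagatatTAA
Nedd8-202: cttagaggaggaggtggtcttgggcagTGA
Gbe1-206: atccttcagaatgtggatctgcaaaacTGA
Ptp4a1-205: gcacagcacgacctctatgcagacaagTGA

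The second set spans the first junction after that stop codon, 15 bases on each side, with the last 2 bases of the upstream exon and the first 2 of the downstream exon in capitals.
Cblc-201: aaacctagaggctAGGGcacctggactgga
Phlda3-201: cagaagacatgtcAGCTtctctgtccactt
Hnrnpa2b1-202: tcctacttaccatGGCAttgatatgaacca
Nedd8-202: tcctctcactctcTGGGagaatgtgaggac
Gbe1-206: tgtcttaatgatgAGATagcactaatataa
Ptp4a1-205: aacaaatttatagAGGAacttaagaagtat

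Between the capitals of the second set lies an annotated intron in the 3′ UTR. Reads across these junctions were not examined. The Cblc intron is 976 bases at chr7:19779797-19780772 on the minus strand, 65 bases after the stop codon. For Phlda3 it is 1583 bases at chr1:135766895-135768477 on the plus strand, 68 bases after the stop codon. The Hnrnpa2b1-202 intron is 1355 bases at chr6:51462056-51463410 on the minus strand and begins only 21 bases after the stop codon, and the junction that brings the transcript under the rule is its second, 157 bases after the stop codon. Nedd8-202 has an intron of 57 bases at chr14:55662401-55662457 on the minus strand, and Gbe1-206 one of 61 bases at chr16:70569441-70569501 on the plus strand. In Ptp4a1-205 the stop codon ends a reading frame of 129 bases, against 519 bases in Ptp4a1-204 of the same gene, and 4 junctions follow it, the last at 805 bases.

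The 260 transcripts differed widely in architecture. The median distance from stop codon to last junction was 283 bases (range 56 to 3630), with 49 transcripts at up to 100 bases, 126 above 100 and up to 500, and 85 above 500. A single junction followed the stop codon in 181 transcripts and 2 or more in 79, up to 20. The median length of the first 3′ UTR intron was 622 bases, and 23 introns were shorter than 70 bases. A CCDS coding sequence was tagged in 198 and an APPRIS principal isoform in 181.

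Most of these transcripts had an alternative within their own gene. In 149, a coding transcript outside the set used the same stop codon without such a junction, so that the end of the reading frame was shared, while exons upstream of it could differ as well. In 54 the other coding transcripts ended at a different stop codon, and in 57 the gene had no coding transcript outside the set, as for Cblc, Phlda3, Arc, H2-M3 (a nonclassical MHC class I gene) and Mtln (a mitochondrial micropeptide).

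Expression in liver was low for most of them. No estimated read fell on 42 of the 260 in any liver, which allows at most 0.147 to 0.226 CPM at a floor of 3 counts, counting error only, and 123 stayed under 10 reads in every liver. Arc was among these, with at most 3.18 reads on Arc-201 and 4.82 on Arc-202 in any liver. The filter of at least 1 TPM and at least 10 reads in at least 4 of 12 livers kept 71 transcripts of 66 genes, 27.3% of the set against 39.6% of the coding transcripts with no junction after the stop codon. The median level of the 71 was 3.86 TPM, beside 4.64 TPM for the tested transcripts with no junction and 2.64 TPM for those of the nonsense_mediated_decay biotype. These 71 passed on their levels and do not stand for the whole set.

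The order of levels was led by Mup3-203 at a mean of 414 TPM over 12 livers. Mup3 encodes a major urinary protein, one of a family of near-identical genes, so its reads are shared with paralogs and its values are uncertain. Next came Ptp4a1-205 (a protein tyrosine phosphatase gene) at 85.8 TPM, Sdc1-205 (syndecan-1, a cell surface proteoglycan) with 32.6 to 168.5 over the livers, Pnp-202 (purine nucleoside phosphorylase) at a mean of 69.4 and Nedd8-202 (a ubiquitin-like modifier) at 38.8. The neighbours from Ptp4a1-205 to Pnp-202 overlapped in their ranges over livers. In 17 transcripts the mean was at least 10 TPM and in 43 it was under 5 TPM. As a share of the parent gene's TPM, 18 of the 71 held over 50%, led by Mtln-201 and H2-M3-201, each the only transcript of its gene, and 18 held under 10%.

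The tested transcripts nearest above the limit of 55 bases were Wapl-205, Ccdc144b-203 and Strn4-202. They lay at 59, 61 and 62 bases with 9.68, 0.942 and 9.54 TPM. H2-Q10-201 and Tti2-201, both at 54 bases, lay just outside with 1447 and 2.90 TPM. Dglucy-205, at 53 bases with 3.63 TPM, was the next tested one. WAPL releases cohesin from chromatin, STRN4 is a striatin scaffold and H2-Q10 is a secreted MHC class I protein of liver.

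Reduction of Upf3b was first compared with the control ASO on the level of each transcript. A single one of the 71 rose, Cblc-201, and none fell (edgeR quasi-likelihood test with sex as covariate, Benjamini-Hochberg adjusted p under 0.05 over 29022 transcripts). That is 1.41% of the tested set, beside 1.35% of all transcripts tested, 393 of 29022. At an unadjusted p under 0.05 the set had 11 of 71 (15.5%), 6 higher and 5 lower, beside 13.5% of all transcripts, so neither share stood apart from the background.

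Cblc encodes a CBL family E3 ubiquitin ligase of epithelia, which tags receptor tyrosine kinases. Cblc-201 stood at 7.66, 6.34, 11 and 15.0 CPM in the 4 DPBS livers and 9.38, 12.9, 7.42 and 15.4 in the control ASO livers. In the Upf3b-GalNAc-ASO livers it stood at 22.1, 24.6, 41.6 and 37.3 CPM. All 4 treated livers lay above all 8 others, and males were above females within the treated group. The log2 fold change was 1.41 ± 0.26 (SE) against control ASO (edgeR adjusted p = 0.0312) and 1.66 ± 0.26 against DPBS (edgeR adjusted p = 0.0155). The call against control ASO held in 4 of 12 fits that each left out 1 liver and was lost without control ASO replicate 1 or 4, DPBS replicate 1 or 3, Upf3b-GalNAc-ASO replicate 1, 2, 3 or 4, with log2 fold changes of 1.17 to 1.61 throughout. Against DPBS it held in 7 of 12 and was lost without DPBS replicate 1, 2 or 3 or Upf3b-GalNAc-ASO replicate 2 or 4. The call against control ASO was also lost without sex in the model (edgeR adjusted p = 0.0717) and with the replicate number as a block (edgeR adjusted p = 0.0592). Without control ASO replicate 3 the log2 fold change was 1.17 with an edgeR adjusted p of 0.00679.

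**Figure D1:**
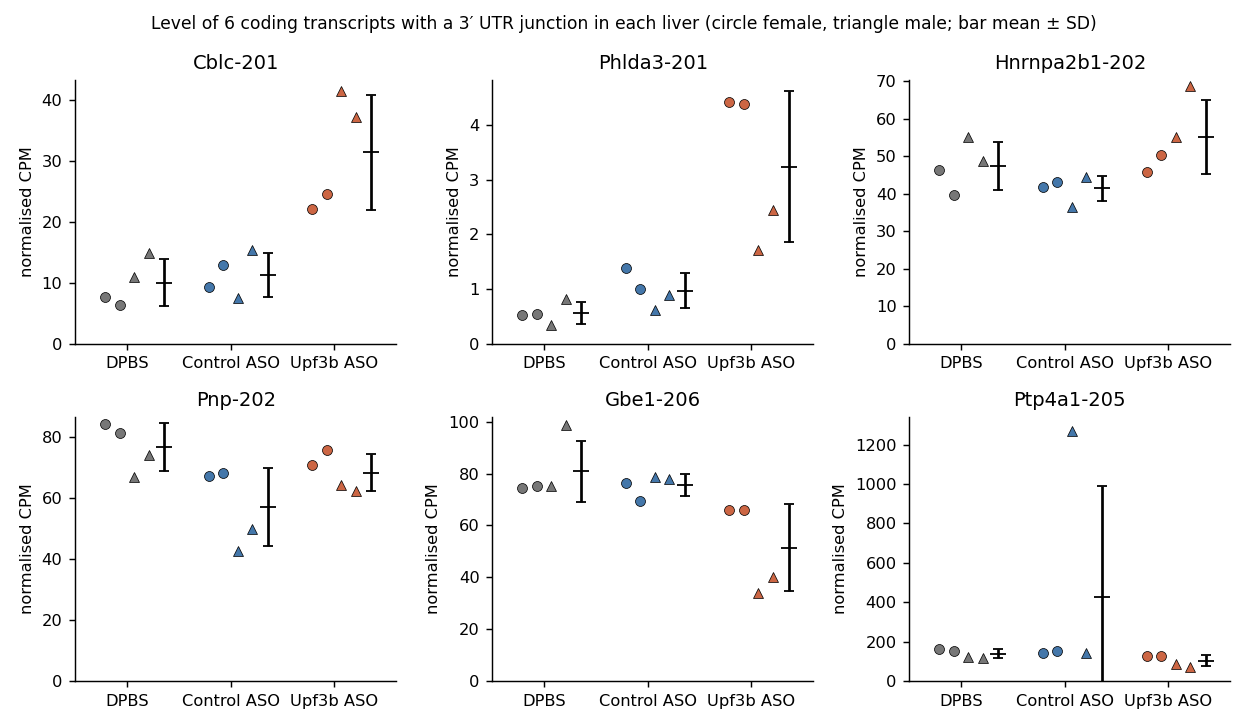
Normalised CPM (y axis) of 6 coding transcripts with a 3′ UTR junction in each liver, by group (x axis); circles are females, triangles males, and the bar gives the mean ± SD of 4 livers. The Cblc-201 values of the treated livers, 22.1 to 41.6, all lie above those of the other groups, while the Ptp4a1-205 mean of the control ASO group is carried by replicate 3 at 1270.

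A transcript of Cblc without a coding annotation rose beside it. The retained-intron transcript Cblc-206 went from 4.89 ± 1.12 TPM (SD, n = 4) with control ASO to 20.1 ± 2.56 with Upf3b-GalNAc-ASO, 1.98 ± 0.31 higher on the log2 scale (adjusted p = 0.0151 by edgeR). Cblc-207, a processed transcript, did not pass (1.67 ± 0.47, edgeR adjusted p = 0.139). The share of the gene's TPM on Cblc-201 was 34.5 to 69.5% in control ASO livers and 35.4 to 44.0% in Upf3b-GalNAc-ASO livers, which overlapped, so the share of the spliced 3′ UTR form was not seen to differ. Summed over transcripts, Cblc rose 1.48 ± 0.18 (log2; edgeR adjusted p = 0.000691 over 8846 genes).

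Against DPBS, 2 of the 71 were called, both higher, Cblc-201 and Phlda3-201, beside 1.24% of all transcripts. PHLDA3 is a pleckstrin homology domain protein known as a p53 target that restrains AKT. Phlda3-201 had 0.517, 0.545, 0.345 and 0.823 CPM in DPBS livers and 1.38, 0.999, 0.613 and 0.881 in control ASO livers. With Upf3b-GalNAc-ASO it had 4.43, 4.39, 1.71 and 2.45 CPM, above all other livers, and here the females were above the males. These values rest on 6 to 82 reads per liver. In TPM it had at most 0.729 with DPBS, 0.428 to 1.40 with control ASO and 1.46 to 4.56 with Upf3b-GalNAc-ASO. It therefore passed the filter of 1 TPM in 4 livers only through the treated livers, and its calls are not independent of that filter. The log2 fold change was 2.42 ± 0.39 against DPBS (edgeR adjusted p = 0.0171) and 1.70 ± 0.38 against control ASO (edgeR adjusted p = 0.0639). The call against DPBS was lost without DPBS replicate 1, 2 or 3 or without Upf3b-GalNAc-ASO replicate 1, 2 or 4. With DESeq2 the contrast against control ASO passed as well (adjusted p = 0.000786). Phlda3-201 and the transcripts named from here on, apart from Hnrnpa2b1-202, Srsf2-206 and the most abundant ones, were chosen after their values were seen.

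The control ASO against DPBS comparison gave the background of oligonucleotide treatment. None of the 71 transcripts was called, and none of 29022 overall (0.0%). At an unadjusted p under 0.05 edgeR gave 3 of 71 (4.23%, beside 4.48% of all), and DESeq2 called 2, Pnp-202 among them. The share of all transcripts that DESeq2 called is not given.

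Counting livers without a model gave a like picture. On the CPM scale, all 4 treated livers lay above all 4 control ASO livers for 4 of the 71 transcripts (5.63%, beside 4.05% of all transcripts) and below them for 2 (2.82%, beside 4.19%). The 4 were Cblc-201, Phlda3-201, Hnrnpa2b1-202 and Cdc14b-203, and the 2 were Gbe1-206 and Ptp4a1-205. Phlda3-201 is in this count only because the treated livers carried it past the filter. Against DPBS, 4 lay above (5.63%, beside 5.03%) and 5 below (7.04%, beside 5.95%).

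**Figure D2:**
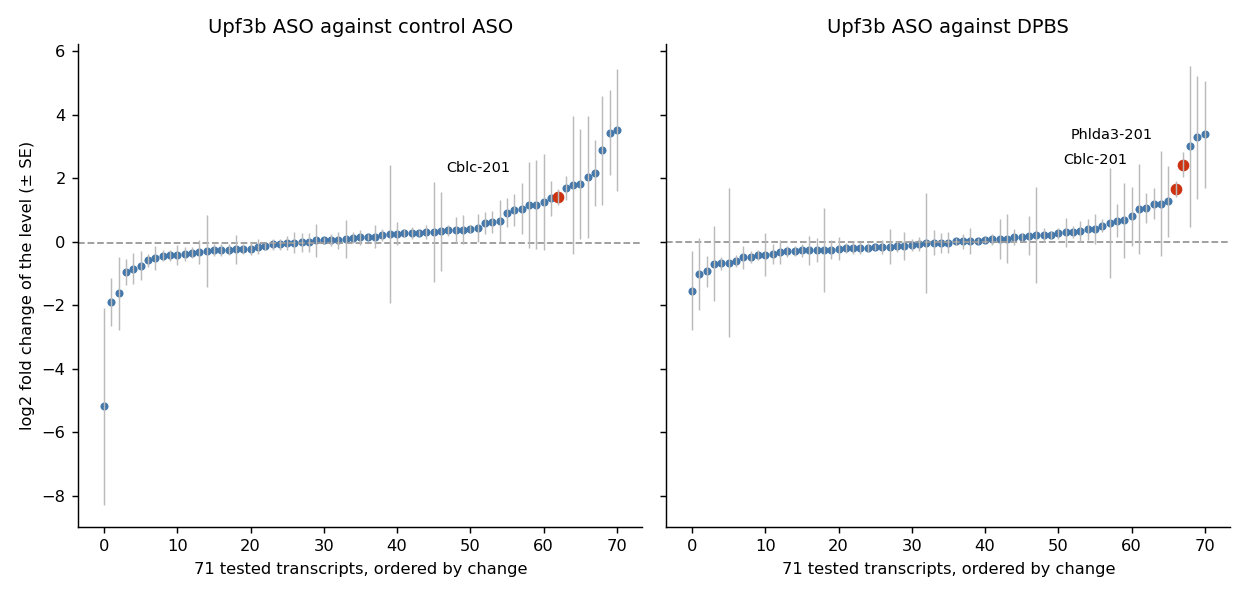
Log2 fold change of the level with its SE (y axis) for the 71 tested transcripts, ordered by size (x axis), against control ASO and against DPBS. Red points passed the edgeR test; the dashed line is the median of all 29022 transcripts. Against control ASO the highest value is 3.51, and 16 of the 71 carry a standard error over 1.

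Hnrnpa2b1 encodes an RNA-binding protein of the hnRNP family, and among its 3 transcripts only Hnrnpa2b1-202 has a junction more than 21 bases after the stop codon. Hnrnpa2b1-202, with its second junction at 157 bases, had 46.3, 39.6, 55.05 and 48.9 CPM in DPBS livers and 41.7, 43.0, 36.6 and 44.4 in control ASO livers. The Upf3b-GalNAc-ASO livers had 45.9, 50.4, 55.1 and 68.8 CPM, above the control ASO livers but not above DPBS. Its log2 fold change of 0.40 ± 0.13 against control ASO did not pass (edgeR adjusted p = 0.194), though DESeq2 called it (adjusted p = 0.0398). The other 2 transcripts, whose last junction lies 21 bases after the stop codon, had log2 fold changes of 0.02 (Hnrnpa2b1-203) and −0.39 (Hnrnpa2b1-201). Its share of the gene was 34.1 to 50.1% with control ASO, 48.8 to 61.3% with Upf3b-GalNAc-ASO and 41.3 to 55.3% with DPBS.

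Srsf2, a serine/arginine-rich splicing factor that regulates its own level through 3′ UTR splicing, contributed Srsf2-206. The quantification gave this transcript and Srsf2-202, which is annotated as an NMD transcript, the same reads in every liver, so the coding label and the NMD label cannot be separated in these data. Srsf2-206 stood at 2.15 to 3.605 TPM in DPBS livers, 0 to 2.44 in control ASO livers and 1.60 to 3.47 in Upf3b-GalNAc-ASO livers. The lowest values were those of control ASO replicates 2 and 3, the groups overlapped, and no difference passed (log2 fold change 1.04 ± 0.80, edgeR adjusted p = 0.628). Equal reads with another transcript were found for 5 of the 71, among them Rps6ka4-201 and Rps6ka4-202, which share the gene equally.

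The 5 most abundant transcripts did not pass the edgeR level test against control ASO, while DESeq2 called Ptp4a1-205 (adjusted p = 0.0443) and Pnp-202 (adjusted p = 0.0489). Ptp4a1-205 had 142, 151, 1270 and 143 CPM with control ASO, with replicate 3 far above the rest, and 128, 129, 86.01 and 71.02 CPM with Upf3b-GalNAc-ASO. Its log2 fold change was −1.90 ± 0.75 (edgeR adjusted p = 0.305) and −0.46 without that liver. Sdc1-205 showed the same liver at 412.5 CPM against 101.4 to 174 in the rest of its group, with 72.3 to 137 CPM after Upf3b-GalNAc-ASO. Pnp-202 was lower with control ASO (42.6 to 68.1 CPM) than with DPBS (66.8 to 84.3), overlapping at single livers, and Upf3b-GalNAc-ASO livers, at 62.2 to 75.6 CPM, overlapped both. Nedd8-202 had 8.96 to 11.5 CPM with control ASO and 10.2 to 13.8 with Upf3b-GalNAc-ASO, 0.27 ± 0.13 higher on the log2 scale without passing (adjusted p = 0.401, edgeR). For Mup3-203 the change was −0.14 on the log2 scale (adjusted p = 0.624, edgeR) and was higher in males than in females in every group, at 472 to 666 TPM against 258 to 322.

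Gbe1-206, a transcript of the glycogen branching enzyme gene annotated with a short 3′ UTR intron, was lower in treated livers on the CPM scale. It had 74.4, 75.1, 75.2 and 98.5 CPM with DPBS and 76.2, 69.5, 78.8 and 78.0 with control ASO. After Upf3b-GalNAc-ASO the females had 65.9 and 66.0 CPM and the males 33.7 and 40.2. The log2 fold change of −0.58 ± 0.21 against control ASO did not pass (edgeR adjusted p = 0.250), and DESeq2 called the transcript only against DPBS (−0.67, adjusted p = 0.0487). Its share of the gene was 35.8 ± 3.11% (SD, n = 4) with DPBS, 35.3 ± 2.34% with control ASO and 32.3 ± 9.49% with Upf3b-GalNAc-ASO. Summed over transcripts, Gbe1 fell against DPBS (log2 −0.48 ± 0.13, adjusted p = 0.0473, edgeR) and did not pass against control ASO (−0.41 ± 0.13, adjusted p = 0.0783, edgeR). Gbe1-203, with no junction after the stop codon, had −0.59 ± 0.15 against DPBS and −0.32 ± 0.15 against control ASO, neither of which passed (edgeR adjusted p = 0.0999 and 0.367). For Gbe1-206 the effect was not called different between sexes either, −0.94 ± 0.21 (male minus female, unadjusted p = 0.00199 and adjusted p = 0.591, edgeR). None of the 71 transcripts passed the test of a sex difference, and none of 29022 did (0.0%). At an unadjusted p under 0.05 the set had 11 of 71 (15.5%), beside 5.99% of all transcripts, with 2 livers per group and sex. These included Ptp4a1-205, which was far higher in control ASO replicate 3, a male, than elsewhere. Rbpms-213, Rhpn2-202 and Txnl4b-202 were also among them, each with a mean of 0 CPM in control ASO males. So was Cutal-202, with 0 CPM in control ASO females. A sex effect is therefore not read from this share.

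Levels of the set as a whole were described by medians. The median log2 fold change of the 71 was 0.14 against control ASO, with 42 of 71 positive, beside −0.03 for all transcripts. Against DPBS it was −0.03 beside −0.00, and for control ASO against DPBS −0.10 beside 0.01, with 30 of 71 positive. These comparisons share control samples, and the shift against control ASO was not seen against DPBS. The standard error of a single transcript was 0.37 on the log2 scale at the median, so a change of that size in 1 transcript was not detectable.

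Distance from stop codon to last junction did not order the changes. Against control ASO the median log2 fold change was 0.04 for the 12 tested transcripts at up to 100 bases, 0.25 for the 32 above 100 and up to 500 bases and 0.08 for the 27 above 500 bases. Against DPBS the same medians were 0.08, 0.06 and −0.14. With 2 or more junctions after the stop codon the median was 0.35 against control ASO and 0.10 against DPBS (19 transcripts), and with 1 junction 0.04 and −0.04 (52 transcripts). Coding transcripts whose last junction lay 1 to 55 bases after the stop codon, or that had none there, had medians of −0.01 (790 and 15146 tested), and those of the nonsense_mediated_decay biotype had 0.05 against control ASO and 0.11 against DPBS (1643 tested).

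**Figure D3:**
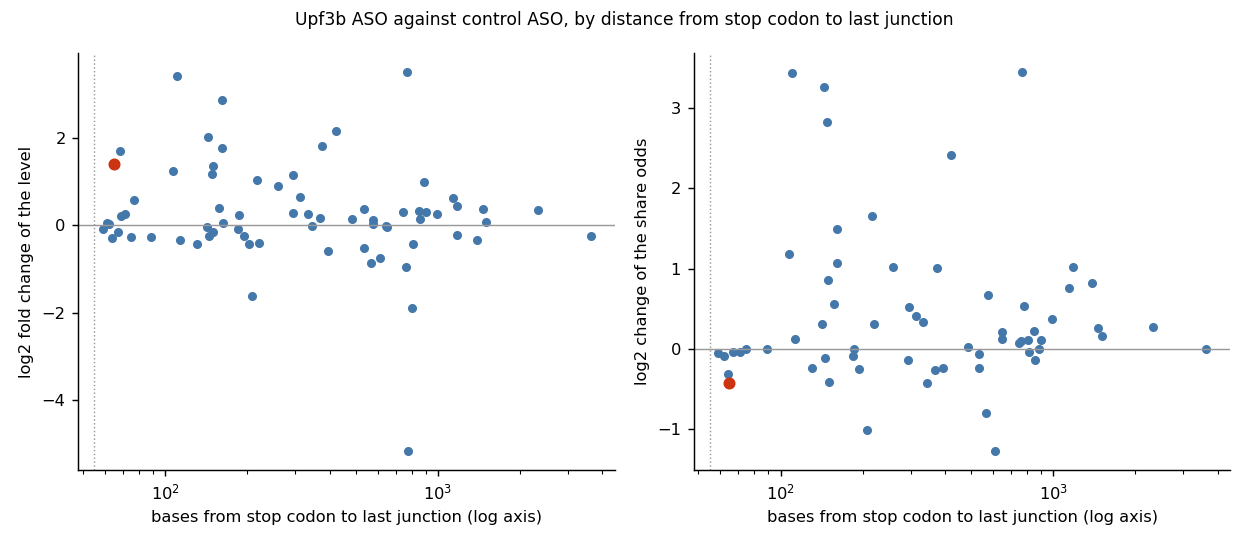
Change with Upf3b-GalNAc-ASO against control ASO (y axis: log2 fold change of the level, left, and log2 change of the share odds, right) by the distance from stop codon to last junction in bases (x axis, log scale). The dotted line marks 55 bases and the red point is Cblc-201 at 65 bases; medians for short, middle and long distances on the left are 0.04, 0.25 and 0.08.

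The share of a gene's TPM that falls on such a transcript asks whether the spliced 3′ UTR form gained on its sister transcripts. None of 63 transcripts with a tested sister was called in any comparison (limma on log2 odds with 0.1 TPM added to both terms), beside 11 of 23116 (0.0476%) against control ASO, 4 (0.0173%) against DPBS and 1 (0.00433%) for control ASO against DPBS. At an unadjusted p under 0.05 limma gave 6 of 63 (9.52%, beside 7.70% of all), 1 (1.59%, beside 6.62%) and 5 (7.94%, beside 4.88%), and edgeR's diffSpliceDGE also called none. Groups did not overlap against control ASO for 1 transcript that was higher (1.59%, beside 2.03%) (AC149090.1-201) and 2 that were lower (AC149090.1-202 and Cabyr-206; 3.17%, beside 2.25%), and against DPBS for 2 that were higher (3.17%, beside 2.25%) and 1 that was lower (1.59%, beside 2.6%). AC149090.1-201 and AC149090.1-202 are the 2 transcripts of one gene, so their shares mirror each other: 61.8 to 67.2% with control ASO and 67.2 to 69.5% with Upf3b-GalNAc-ASO for AC149090.1-201. Both are in the set, so their shares compare 1 such form with another. Rps6ka4-201 and Rps6ka4-202 had equal reads, so neither could gain on the other. For 10 of the 63 the gene had no coding transcript outside the set, so a gain on a coding sister without such a junction could not be seen. The median log2 change of the share odds was 0.11 against control ASO, 0.00 against DPBS and −0.05 for control ASO against DPBS, beside −0.00, −0.02 and −0.01 over all transcripts tested.

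Cdc14b-203, of a dual-specificity phosphatase gene, was 1 of the 6 at an unadjusted p under 0.05. It held 15.9, 12.1, 12.6 and 14.5% of the gene with DPBS and 13.04, 15.6, 3.45 and 9.13% with control ASO. After Upf3b-GalNAc-ASO it held 21.4, 16.7, 15.2 and 19.4%, which overlapped the other groups. The log2 change of the odds was 0.86 ± 0.27 (limma adjusted p = 0.513). Prmt6-203, of an arginine methyltransferase gene, showed how read assignment can switch between sisters. Its share was 48.7 to 59.6% in 3 DPBS livers and 0.05% in the fourth, and it was near 0 in control ASO replicates 1 and 3.

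**Figure D4:**
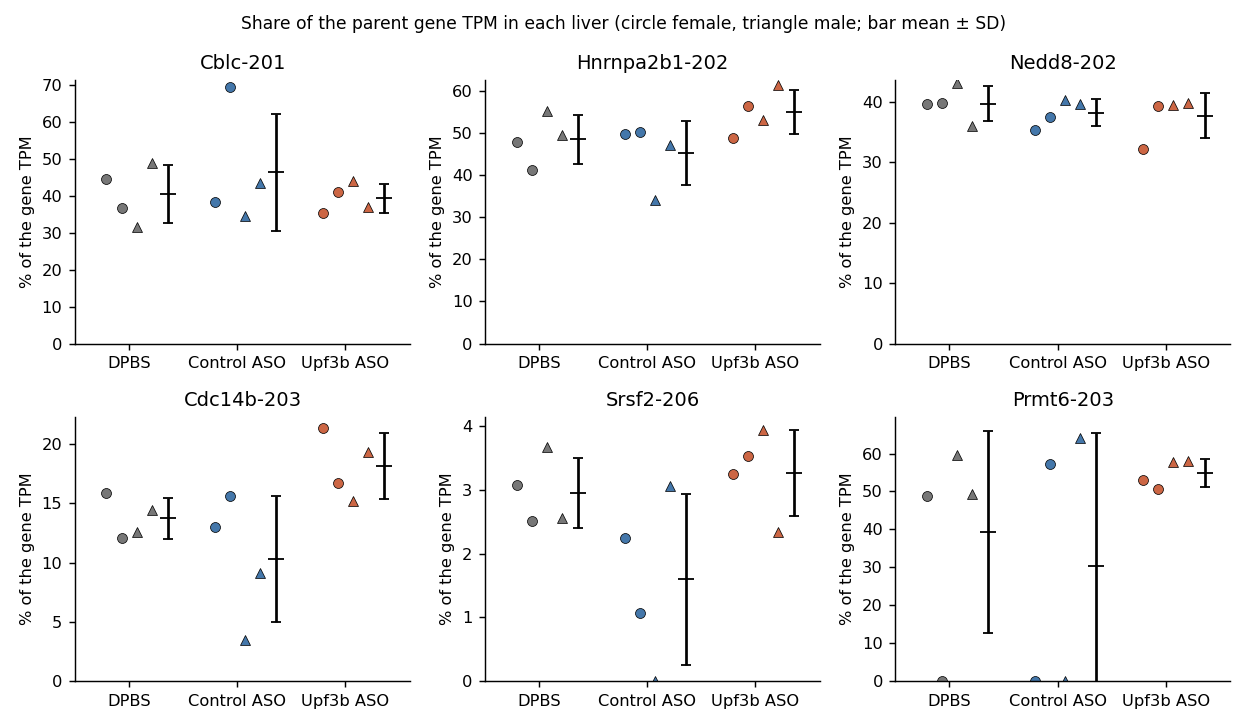
Share of the parent gene's TPM in percent (y axis) for 6 transcripts in each liver, by group (x axis); circles are females, triangles males, and the bar gives the mean ± SD of 4 livers. Hnrnpa2b1-202 held 48.8 to 61.3% after Upf3b-GalNAc-ASO and 34.1 to 50.1% with control ASO, and Prmt6-203 was near 0 in 1 DPBS and 2 control ASO livers.

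Where the same stop codon is used with and without the spliced 3′ UTR, the comparison holds the reading frame's end fixed. For 60 such stop codons with at least 5 TPM in at least 4 livers, the median share on the transcripts with a junction over 55 bases away was 16.4 ± 1.59% (SD, n = 4) with DPBS, 14.6 ± 3.63% with control ASO and 17.7 ± 2.81% with Upf3b-GalNAc-ASO. The groups overlapped, and in none of the 60 did the treated livers lie apart from either other group. The 5 TPM were counted over all transcripts with that stop codon. Some stop codons therefore had nothing to separate, such as those of R3hdm4, Smad7 and Zfp36l1 with a share of 0 in every liver. No such count was made over other transcripts. Over 87 parent genes tested, the median share within the gene was 9.24 ± 1.39%, 8.34 ± 1.92% and 10.5 ± 0.745% in the same order.

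Summed over all 214 parent genes, the share of TPM on these transcripts was 13.1, 12.2, 7.34 and 7.57% in DPBS livers, 14.2, 10.7, 9.94 and 7.25% with control ASO and 10.5, 10.8, 5.80 and 6.11% with Upf3b-GalNAc-ASO. Females were above males in each group, and Mup3 dominated the sum. Without Mup3 the share was 21.1 ± 0.954% with DPBS, 22.6 ± 3.95% with control ASO, where replicate 3 stood at 28.5%, and 20.4 ± 0.903% with Upf3b-GalNAc-ASO. No group stood apart.

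**Figure D5:**
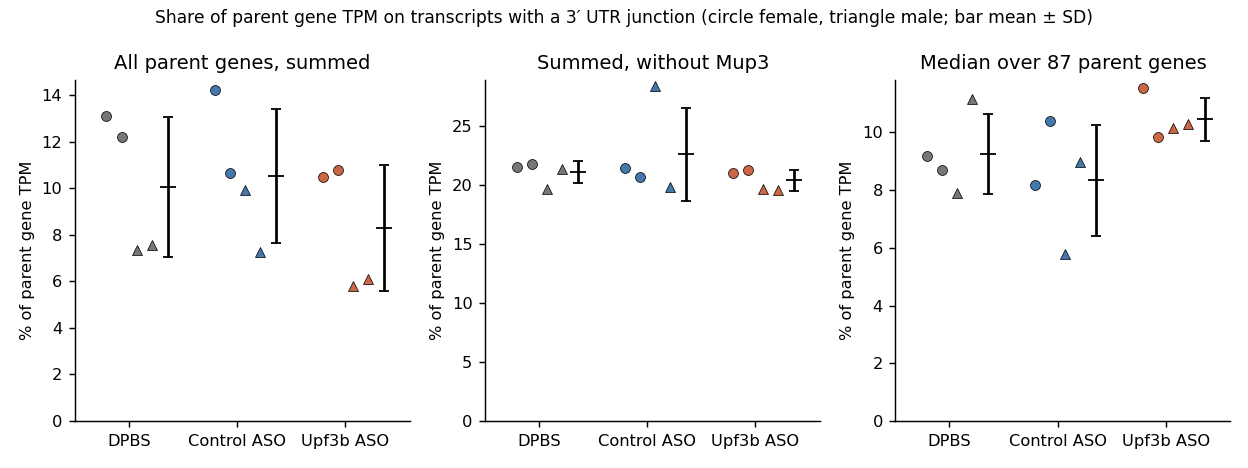
Share of parent gene TPM on transcripts with a 3′ UTR junction in percent (y axis) in each liver by group (x axis), summed over all parent genes, summed without Mup3, and as the median over 87 parent genes; circles are females, triangles males, bars mean ± SD. The first panel has means of 11.9% in females and 7.34% in males. Without Mup3 the means are 21.3 and 21.5%, and the male mean includes control ASO replicate 3 at 28.5%. Females still lie above males there with DPBS (21.6 and 21.8% against 19.7 and 21.4%) and with Upf3b-GalNAc-ASO (21.1 and 21.3% against 19.7 and 19.6%).

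Among the lists of RNA-processing genes, few contributed. No gene of the NMD factor list (18 genes) or of the exon junction complex list (13) had such a transcript, and 1 of the SR protein list and 1 of the hnRNP list did, both described above. At the gene level, edgeR called 1 higher and 2 lower of 15 NMD factor genes tested against control ASO, Upf3b among the latter. It called 0 higher and 1 lower of 13 exon junction complex genes, and none of 17 SR or 28 hnRNP genes. Over all 8846 genes tested, 4.34% were called higher and 5.95% lower, and these lists are too small to set apart from that. Of the spliceosome list, U2af2-202 (9.84 TPM, log2 fold change −0.08 ± 0.18) and Ddx39-206 (1.02 TPM, −0.16 ± 0.23) were tested and not called. The list of known NMD substrates held Arc-201, Arc-202 and Eif4a2-224, none of which passed the filter. Neither the ribosomal protein, oxidative phosphorylation, drug metabolism, coagulation nor lipid lists held a member.

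Parent genes summed over all their transcripts were measured more precisely, with a median SE of 0.14. Of 87 tested, 12 were called against control ASO (13.8%, beside 10.3% of 8846 genes), 7 higher (8.05%, beside 4.34%) and 5 lower (5.75%, beside 5.95%). At an unadjusted p under 0.05 there were 26 of 87 (29.9%, beside 28.0%). Against DPBS 12 were called (13.8%, beside 8.93%), 5 higher (5.75%, beside 3.57%) and 7 lower (8.05%, beside 5.36%), and 6 genes were called in both. Control ASO against DPBS gave 0 of 87 (beside 0.0113%), with 1 by DESeq2, whose share over all genes is not given. The median log2 fold change of the 87 was −0.02 against control ASO, as over all genes.

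The 6 genes called in both comparisons were Cblc, Adora1, Mocs2 and Cdh1, which rose, and Arhgap21 and Gtdc1, which fell. Adora1, the adenosine A1 receptor, had 10.5, 9.43, 13.2 and 17.1 CPM with DPBS, 15.96, 10.8, 21.1 and 16.1 with control ASO and 21.2, 24.5, 51.2 and 56.6 with Upf3b-GalNAc-ASO. The treated livers lay above all others, males the most (log2 fold change 1.17 ± 0.19, edgeR adjusted p = 0.00394). Adora1 passed the gene filter of 5 TPM in at least 4 livers only through the treated livers, so its calls are not independent of that filter. Its transcript with a 3′ UTR junction, Adora1-203, held 38.6% of the TPM. The log2 fold change of Adora1-203 against control ASO was 0.99 ± 0.49 and was not called (edgeR adjusted p = 0.420). Its groups overlapped, at 0.302 to 2.61 TPM with control ASO and 1.86 to 6.89 with Upf3b-GalNAc-ASO. Adora1-201, without such a junction, was called at 1.45 ± 0.21 (edgeR adjusted p = 0.0115).

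Mocs2 encodes both subunits of molybdopterin synthase from overlapping reading frames, so that a stop codon of the first frame lies far upstream of later junctions. It rose from 109.7, 106.5, 84.0 and 107 CPM with control ASO to 145, 151, 145 and 132 with Upf3b-GalNAc-ASO (log2 fold change 0.50 ± 0.09, edgeR adjusted p = 0.00641). The 7 Mocs2 transcripts of the set together held 8.42% of its TPM, and the 3 tested were not called. Mocs2-201, without a 3′ UTR junction, held 70.2% and did not pass, at 0.60 on the log2 scale (adjusted p = 0.0745, edgeR).

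The log2 change of Cdh1 (E-cadherin) was 0.65 ± 0.13 (adjusted p = 0.0102, edgeR), with 0.134% of its TPM on the transcript with a 3′ UTR junction. Arhgap21 fell by 0.49 ± 0.11 (log2; adjusted p = 0.0199, edgeR) and Gtdc1 (a glycosyltransferase-like gene) fell by 0.68 ± 0.14 (log2; adjusted p = 0.0119, edgeR), with 0.142% and 2.77% on theirs. Without control ASO replicate 3, 23 parent genes were called against control ASO and 26 against DPBS. The share of all genes called in those fits is not given, so the rise cannot be read as particular to parent genes.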

How the data were processed

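Per the labels and the study's methods, the authors made libraries from total liver RNA (TruSeq, HiSeq 2500), converted reads with bcl2fastq 2.17.1.14 and quantified transcripts with Salmon 0.7.2 on Ensembl release 81 cDNA of GRCm38. The deposited values are expected counts (estimated read counts, not whole) and TPM per transcript in each liver, beside length columns. A read that fits several transcripts is divided among them by Salmon, so levels of sister transcripts are estimates that depend on each other.

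Stop codons and exons were taken from GENCODE release 21 for mouse, a later annotation than the one quantified. It held 90712 of the 92468 transcripts. Of the 260 selected, 246 had the same length in both, and 4 of the 71 tested did not. The distance was counted from the last base of the stop codon. The transcripts and gene lists were chosen with earlier results of these data known.

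Counts were rounded and tested with edgeR 4.0.16 (TMM, quasi-likelihood, sex as covariate, all 12 livers in 1 fit) on transcripts with at least 1 TPM and 10 counts in at least 4 livers, and on genes with at least 5 TPM in at least 4 livers. Shares were tested with limma 3.58.1 on log2 odds with 0.1 TPM added. P-values were adjusted by Benjamini-Hochberg over all features, with 0.05 as threshold. DESeq2 1.42.0, limma on TPM, other filters, the covariates and each liver left out were alternatives. Two-sided tests were used throughout. Fits were tested on simulated data.

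Named transcripts were those called on level or share against control ASO with groups apart (up to 10 per direction). Those called in control ASO against DPBS (up to 3) and the 5 most abundant were added. Tested ones in the NMD, exon junction complex, SR, hnRNP and NMD substrate lists were named too. The last were the 3 tested transcripts nearest to the limit on each side. Nothing says that livers were handled in batches. Livers of Upf1-targeted mice are not analysed here. The values of 1 tested transcript are counted but not reported here.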

Additional observations from a re-analysis of the deposited data

Results flagged for a closer look

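In 4 of 81 groups of 4 livers examined, 1 liver had a gap to its nearest neighbour, as a part of the group's range, above Dixon's critical value, about as many as chance gives at 1 in 20. In the control ASO group, replicate 3 had 413 TPM of Ptp4a1-205, while the rest had 57.5 to 67.7 (0.971), and its share of the gene was 86.2% there against 68.3 to 70.6% (0.868). Nedd8-202 held 32.1% of its gene in Upf3b-GalNAc-ASO replicate 1 and 39.4 to 39.9% in the others (0.931). Phlda3-201 held 70.6% in control ASO replicate 4 and at least 95.8% in the others (0.856), on few reads.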

How the results depend on the processing

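The share result, 0 transcripts called, was the same under every alternative run. On level against control ASO, where 1 of 71 was called, the count was 0 with the replicate block in place of sex, without sex, with limma on log2(TPM + 0.1), with a filter of 1 read (156 tested) and for a limit of 100 bases, 2 for a limit of 50 bases, which adds H2-Q10-201 (log2 0.57 ± 0.09, edgeR adjusted p = 0.0160), and 7 with DESeq2. Leaving out each liver gave 0 to 2. Counts under the alternatives in this section come without the share over all features, so an excess in the set cannot be read from them. Against DPBS, where 2 were called, the count was 4 with DESeq2, 1 at a minimum of 5 TPM, 0 for a limit of 100 bases and 0 to 4 when a liver was left out. For control ASO against DPBS DESeq2 called 2 and the other settings 0. Parent genes called against control ASO numbered 23 with DESeq2, 6 without sex and 6 to 23 with a liver left out, beside 12. Against DPBS they numbered 7 with the replicate block and 4 to 26 with a liver left out, and DESeq2 called 1 for control ASO against DPBS. The summed share differed by −2.23 percentage points between Upf3b-GalNAc-ASO and control ASO, by −3.32 to −0.99 with a liver left out and by 7.89 for a limit of 50 bases, which adds Mup3-202 (51 bases) and H2-Q10-201.

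The replicate numbers of the labels pair livers only through sex. Deviations of same-numbered livers from their group means correlated at 0.12 on average, as did those of other livers of the same sex (0.12). Over 0.1 were 11 of 12 same-number pairs and 9 of 12 same-sex pairs with another number. With deviations taken from the mean of each group and sex, same-numbered livers correlated at −0.000259 on average. The block was therefore not used in the main test. The cause of the changes in count was not tested.

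Of 473 alternative values for the 12 named transcripts, 425 kept direction and side of the threshold, 23 lost a call, 5 gained one and 20 changed sign. With a liver left out, the change of share odds ran from −0.66 to 0.038 (Cblc-201 against control ASO), −0.22 to 0.17 (Cblc-201 against DPBS), −0.068 to 0.49 (Ptp4a1-205), −0.10 to 0.069 (Nedd8-202), −0.19 to 0.10 (Wapl-205) and −0.23 to 0.049 (Strn4-202), and the log2 fold change of the level from −0.21 to 0.038 (Wapl-205) and −0.14 to 0.17 (Ccdc144b-203). With diffSpliceDGE the share odds changed by −0.077 (Ptp4a1-205), −0.028 (Sdc1-205) and 0.038 (Wapl-205). Restricting to transcripts of equal length in both annotations, chosen after seeing the data, changed no count.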
